A study of Mus musculus with 4 samples.

Results

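Serpinf1+ Pltp+ macrophages are colon cells selected on the combined level of 4 genes. Their members were chosen by a score, the sum over Serpinf1, Pltp, Asb2 and Clec4b1 of ln(1 + UMIs per 10000 UMIs of the barcode), and the 10% of kept barcodes with the highest score were taken over all mice together. This gave 454 members of 4543 kept barcodes. A UMI (unique molecular identifier) is the tag that marks a single captured RNA molecule. Barcodes were kept with 1000 UMIs or more, with detected genes numbering at least 2.5 on the log10 scale, with up to 7% of UMIs from mitochondrial genes and with immunoglobulin genes under 20% of UMIs.

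The sorted cells came from the lamina propria of the colon, the tissue under the gut epithelium, of 4 male C57/Bl6N mice, and were gated on CD11b together with Ly6C or CD64, which takes in monocytes and macrophages. The 2 DEP mice (DEP 11 and DEP 13) had been gavaged on 5 days a week over about 6 months with 12 µg of diesel exhaust particles in 200 µL of PBS, and the 2 PBS mice (PBS 2 and PBS 3) with PBS only. Ages are not given in the labels, and the mouse is the replicate throughout (n = 2 per group). Each mouse gave a library of its own, with 4489342 to 10293703 UMIs in total, and the fewest were in DEP 13.

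Macrophages of the gut wall are in large part replaced throughout life by blood monocytes, which lose Ly6c2 and monocyte genes as they mature and gain complement C1q, F4/80 (Adgre1) and scavenger receptors. Serpinf1 encodes pigment epithelium-derived factor, a secreted protein of the serpin family. Pltp encodes phospholipid transfer protein, which moves phospholipids between lipoproteins. Asb2 is a subunit of a ubiquitin ligase, and Clec4b1 is a C-type lectin receptor of myeloid cells. The Apol7 genes belong to the apolipoprotein L family and were not used in the score.

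The promoters of 7 genes on which the results turn are printed here, in RefSeq's table (build GRCm38.p6, read 5′ to 3′ on the strand of the gene, 250 bases before the transcription start and 50 after), because 4 of these genes chose the members, H2-M2 was called between DEP and PBS mice, and the remaining 2 are the Apol7 genes of the label. Capitals mark matches on either strand to any of 6 motifs, written GAGGAA (core of PU.1, the lineage factor of macrophages), GAAA followed after any 2 bases by GAAA (interferon-stimulated response element), TGANTCA (AP-1), GGG followed after any 5 bases by CC (NF-kB), GAANNTTC (heat shock element) and GCGTG (dioxin response element), and matches of different motifs can overlap.
Serpinf1: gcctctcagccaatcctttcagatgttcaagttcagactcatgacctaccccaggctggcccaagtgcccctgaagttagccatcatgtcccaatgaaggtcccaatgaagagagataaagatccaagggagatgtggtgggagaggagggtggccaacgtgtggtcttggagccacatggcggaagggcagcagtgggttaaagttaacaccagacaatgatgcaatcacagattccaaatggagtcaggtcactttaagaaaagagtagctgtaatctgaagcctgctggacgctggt
Pltp: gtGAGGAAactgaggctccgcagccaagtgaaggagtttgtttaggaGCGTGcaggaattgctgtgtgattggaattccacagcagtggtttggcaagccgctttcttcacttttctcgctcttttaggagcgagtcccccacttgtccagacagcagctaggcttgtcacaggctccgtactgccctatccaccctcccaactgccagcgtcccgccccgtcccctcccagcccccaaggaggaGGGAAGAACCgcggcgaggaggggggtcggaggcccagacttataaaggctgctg
Asb2: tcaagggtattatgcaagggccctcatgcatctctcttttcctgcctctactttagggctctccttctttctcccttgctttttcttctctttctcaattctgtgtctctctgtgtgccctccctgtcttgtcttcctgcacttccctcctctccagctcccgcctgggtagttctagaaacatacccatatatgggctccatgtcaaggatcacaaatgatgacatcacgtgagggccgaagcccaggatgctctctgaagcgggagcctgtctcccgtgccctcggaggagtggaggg
Clec4b1: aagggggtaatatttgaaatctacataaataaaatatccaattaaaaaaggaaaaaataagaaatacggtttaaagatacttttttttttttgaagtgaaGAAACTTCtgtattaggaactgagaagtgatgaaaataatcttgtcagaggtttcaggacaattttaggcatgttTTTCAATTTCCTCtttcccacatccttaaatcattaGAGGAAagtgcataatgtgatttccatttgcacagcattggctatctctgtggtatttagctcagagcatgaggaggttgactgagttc
Apol7c: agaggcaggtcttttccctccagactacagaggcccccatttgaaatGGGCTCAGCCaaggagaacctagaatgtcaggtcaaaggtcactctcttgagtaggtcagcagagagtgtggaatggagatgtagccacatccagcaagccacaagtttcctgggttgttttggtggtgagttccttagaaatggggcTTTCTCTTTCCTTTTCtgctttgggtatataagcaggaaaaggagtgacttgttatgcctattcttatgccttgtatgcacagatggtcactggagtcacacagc
Apol7a: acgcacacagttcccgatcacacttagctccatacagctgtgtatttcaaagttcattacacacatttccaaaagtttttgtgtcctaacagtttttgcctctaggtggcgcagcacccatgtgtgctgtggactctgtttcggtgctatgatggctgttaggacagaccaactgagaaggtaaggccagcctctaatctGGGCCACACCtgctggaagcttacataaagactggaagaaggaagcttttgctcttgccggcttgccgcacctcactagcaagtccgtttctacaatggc
H2-M2: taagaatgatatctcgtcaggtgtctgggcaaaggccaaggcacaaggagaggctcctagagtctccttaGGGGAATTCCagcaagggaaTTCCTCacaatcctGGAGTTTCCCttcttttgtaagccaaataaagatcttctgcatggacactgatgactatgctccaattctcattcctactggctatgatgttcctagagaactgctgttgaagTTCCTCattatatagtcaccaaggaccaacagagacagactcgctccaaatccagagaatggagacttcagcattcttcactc

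These windows lie at chr11:75422574-75422873 for Serpinf1, chr2:164857659-164857958 for Pltp, chr12:103355952-103356251 for Asb2, chr6:123049712-123050011 for Clec4b1, chr15:77533266-77533565 for Apol7c, chr15:77399061-77399360 for Apol7a and chr17:37483505-37483804 for H2-M2. Clec4b1 is on the plus strand and the others are on the minus strand. The Clec4b1 window held 2 matches to the PU.1 core, 1 to the interferon-stimulated response element and 1 to the heat shock element. The Apol7c window held 2 matches to the interferon-stimulated response element, at 55 and 49 bases before the start, which share 4 bases, and 1 to NF-kB. The H2-M2 window held 2 matches to the PU.1 core and 2 to NF-kB, the Pltp window 1 each to the PU.1 core, NF-kB and the dioxin response element, and the Apol7a window 1 to NF-kB. Over all 32851 promoter windows of the table, 28.3% held the PU.1 core, 3.44% the interferon-stimulated response element, 7.81% AP-1, 50.8% NF-kB, 7.86% the heat shock element and 32.4% the dioxin response element. The Serpinf1 and Asb2 windows held no match to any of the 6 motifs. Of 59 genes, namely those of the score, the Apol family, the highest and lowest ratios and the smallest p, 48 had an entry in the table. A match describes letters in these windows and was not tested as a binding site.

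The score did not separate the members as a discrete group. The lowest 2 members had scores of 4.299 and 4.302, and the highest 2 barcodes outside had 4.297 and 4.286, with 41 outside barcodes within 0.1 of the lowest member. The median score was 4.79 in members and 2.0 in the other kept barcodes. UMIs of all 4 score genes were found in 103 members, of 3 genes in 260 and of only 2 in 91, against 72, 561 and 1392 of the other 4089 barcodes. These values come from the rule itself and are given as a description.

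The levels of the score genes follow from the rule and are given as a description. Serpinf1 (ENSMUSG00000000753, mm10 chromosome 11, 75409769 to 75422701) had 107, 131, 126 and 136 CPM (UMIs of the gene scaled to the total of the summed barcodes) in the members of DEP 11, DEP 13, PBS 2 and PBS 3, against 26.8, 23.6, 33.8 and 28.9 in the other barcodes. Pltp (ENSMUSG00000017754, chromosome 2, 164839518 to 164857711) had 784, 682, 791 and 651 CPM in members and 244, 229, 281 and 187 CPM in the others. Members of the 4 mice lay within 107 to 136 CPM for Serpinf1 and 651 to 791 CPM for Pltp.

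Asb2 (ENSMUSG00000021200, chromosome 12, 103321142 to 103356001) had 182, 145, 126 and 81.4 CPM in members, in the same order of mice, and 31.6 to 40.4 CPM in the others. Clec4b1 (ENSMUSG00000030147, chromosome 6, 123049962 to 123071555) had 466, 503, 496 and 656 CPM in members and 194 to 265 CPM in the others. Both DEP mice lay above both PBS mice for Asb2 in members, and the groups overlapped for the other 3 score genes. Because the score chose the members by these levels, no test is given for them.

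**Figure D1:**
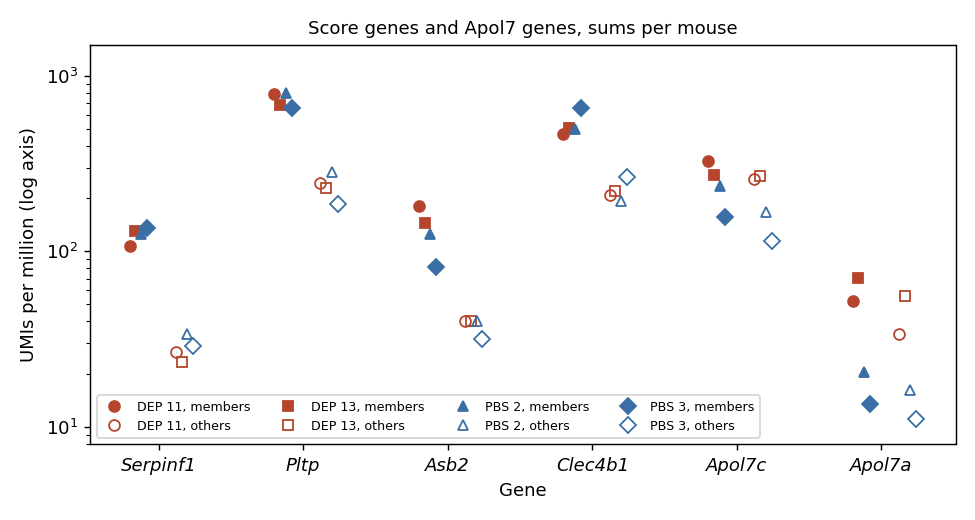
CPM (log axis) of the 4 score genes and of Apol7c and Apol7a, summed per mouse over the members (filled) and the other kept barcodes (open), 1 point per mouse. The score genes are separated in every mouse, while Apol7c at 156 to 327 in members overlaps 115 to 267 in the others.

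Counts of these genes per cell were small, so detection has to be read against free RNA. A Serpinf1 UMI was found in 59.5% of members (median 7398 UMIs), 14.6% of the others (median 5757 UMIs) and 22.5% of 80 plasma cell barcodes (median 20942 UMIs), a cell type expected to lack it. With every barcode thinned to 1000 UMIs the shares became 13%, 2.54% and 2.5%. The thinned share in the others was thus near the plasma cell value for Serpinf1, which is imprecise with only 80 barcodes. For Pltp it was above that of the plasma cells, with 47.4%, 18.0% and 8.75% in members, others and plasma cells. For Clec4b1 the thinned shares were 47.6%, 18.8% and 5.00%, and for Asb2 8.59%, 3.18% and 0%, where 0 of 80 barcodes allows up to 3.75%. The plasma cell values after thinning are low in part by their depth, since the free RNA they hold is thinned most.

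The 4 score genes went together only weakly from cell to cell. When barcodes were ranked by the other 3 genes, a Serpinf1 UMI was found in 29.1% of the top 10% and 17.9% of the rest, and its summed level was 1.26 to 1.68 fold higher in the 4 mice. For Pltp the shares were 78.4% and 58.7% (1.06 to 1.48 fold), and for Clec4b1 80.8% and 64.2% (0.946 to 1.42 fold). Asb2 was found in 19.6% and 18.8%, and its level ranged from 0.553 fold in DEP 13 to 1.24 fold in PBS 2. Asb2 was thus below the rest in DEP 13 and PBS 3, and Clec4b1 slightly so in DEP 13. After thinning, the shares in the top 10% and the rest were 5.95% and 3.33% for Serpinf1, 27.3% and 20.2% for Pltp, 30.8% and 20.6% for Clec4b1, and 3.30% and 3.77% for Asb2, whose order turned.

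**Figure D2:**
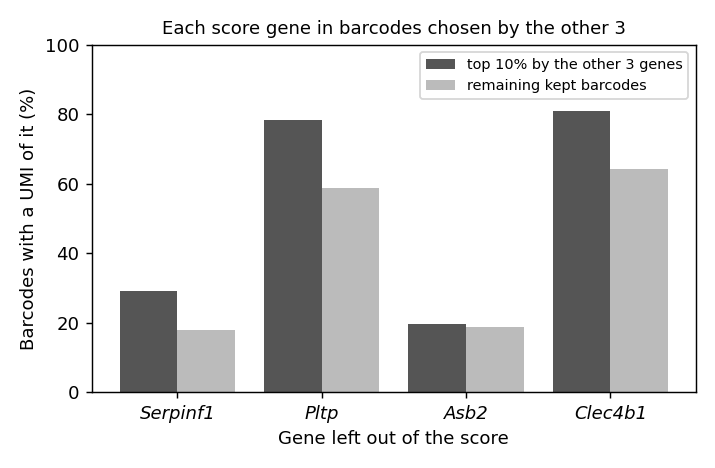
Share of barcodes with a UMI of each score gene (percent, bars from 0) in the top 10% of kept barcodes ranked by the other 3 genes (dark, 454 barcodes) and in the remaining kept barcodes (light). The bars differ most for Pltp, at 78.4% and 58.7%, and those of Asb2 are nearly level at 19.6% and 18.8%.

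Membership moved with the sampling of UMIs. Ranking barcodes by the same score after thinning to 1000 UMIs kept 177 of the 454 members (39.0%), and leaving Asb2 out of the score kept 328 (72.2%). Members were deeper than the others in each mouse, with median UMIs of 6575 and 5258 in DEP 11, 6232 and 5783.5 in DEP 13, 8473 and 7099 in PBS 2, and 6797 and 5290.5 in PBS 3. The part of depth in the choice of members was not tested beyond this ranking. Barcode letters in the table are running codes, of which 36 occurred in more than 1 mouse, and 5 members carried such a code.

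The cells were checked against their label. Of 12 macrophage markers, 7 were higher and 1 was lower in members than in the others in all 4 mice, and their summed level was alike in both, at 40110 to 43836 CPM in members and 39697 to 43737 CPM in the others. C1qa, C1qb and C1qc (subunits of complement C1q), Adgre1, Cx3cr1 (the fractalkine receptor), Fcgr1 (CD64) and Csf1r were the higher ones, and Lyz2 (lysozyme) was the lower. Of 9 monocyte markers at a level of at least 10 CPM, 7 were lower in members in all 4 mice. The monocyte receptor gene Ccr2 was not among them, with 396, 395, 435 and 499 CPM in members and a log2 ratio to the others of −0.41 to 0.16.

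Markers of other cells differed widely in their summed level in members. Summed over 8 genes, mast cell and basophil markers had 0 to 8.53 CPM with 7 of 8 at 0 UMIs, and neutrophil markers 31.3 to 35.0 CPM with 5 of 8 at 0, the remainder being mostly Csf3r. T and NK cell markers summed to 17.1 to 46.9 CPM, B cell markers to 59.9 to 88.2, endothelial markers to 20.4 to 39.8 and epithelial markers to 13 to 108 CPM. Fibroblast markers summed to 199 to 334 CPM, of which Gsn (gelsolin), which macrophages also express, had 187 to 271. Dendritic cell markers summed to 399 to 548 CPM, mostly Irf8 and Batf3, and those of mature migratory dendritic cells to 65.6 to 121 CPM. Plasma cell markers summed to 519 to 1385 CPM, mostly Jchain, which was as high in the other barcodes.

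Macrophage markers were thus present in members, and only their summed level was like that of the other sorted cells. By gene, 7 of 12 were higher and 1 was lower in members in every mouse. The median log2 ratio of the 12 to the others was 0.25. The Apol7 part of the label was weak. Apol7c (ENSMUSG00000044309, chromosome 15, 77524852 to 77533316) had 327, 273, 235 and 156 CPM in members and 260, 267, 166 and 115 CPM in the others, in the order DEP 11, DEP 13, PBS 2, PBS 3. The excess over the others was small in every mouse, at a log2 ratio of 0.03 to 0.48. An Apol7c UMI was found in 37.2% of members, 27.1% of others and 36.2% of plasma cell barcodes (11.9%, 9.59% and 5.00% after thinning). The cells are therefore called by their score genes here.

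Apol7c was concentrated in few of the members. Of the 454 members, 285 had no Apol7c UMI and 99 (21.8%, 95% exact binomial interval 18.1 to 25.9%) had 2 or more, and these 99 carried 91.7% of its UMIs. Members with 2 or more made up 28.0% (DEP 11), 16.4% (DEP 13), 26.3% (PBS 2) and 12.8% (PBS 3), so the groups overlapped. Of all 682 kept barcodes with at least 2 Apol7c UMIs, 14.5% were members. In members with 2 or more Apol7c UMIs, pooled over mice, Apol7a had 98.8 CPM, against 0 in members without an Apol7c UMI, and Asb2 had 193 against 93.8 CPM. Pltp went the other way, with 549 against 837 CPM, and was lower in each mouse. Serpinf1 had 127 CPM in both when pooled, but in members with 2 or more it was higher in both DEP mice (110 against 89.0 and 193 against 124 CPM) and lower in both PBS mice (124 against 133 and 132 against 140 CPM). Asb2, Pltp and Serpinf1 are score genes, so the cut on the score ties their levels in members to each other. The members with 2 or more were deeper, with a median of 9617 against 6494 UMIs. The parts of the score and of depth in these differences were not tested. Apol7a and Apol7c are close relatives on the same chromosome, and reads that could come from either may have been split or dropped in counting.

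Beyond the score genes, members differed from the other barcodes by a modest gain of resident macrophage genes and a large loss of monocyte genes. Of 2013 genes with a mean of at least 50 CPM in members, 285 (14.2%) were higher in members in all 4 mice and 333 (16.5%) were lower, and 0 exceeded a log2 ratio of 1 in every mouse. Log2 ratios were taken after 5 CPM were added to both levels. This contrast shares its cells with the rule, so the values are a description with no test.

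Among secreted and receptor genes, Igfbp4, a binding protein of insulin-like growth factors, had 67.7, 56.8, 97.2 and 61.1 CPM in members and 36.5, 28.3, 50.3 and 30.7 CPM in the others, with log2 ratios of 0.81 to 0.89. Its level in barcodes under 500 UMIs was 48.8 CPM, above the others in 3 mice. Clec4a2, an inhibitory C-type lectin and neighbour of Clec4b1 on chromosome 6, had 642, 671, 643 and 763 CPM in members against 349 to 443 CPM in the others (0.75 to 0.87). Ccl7, a chemokine that attracts monocytes, had 296, 494, 424 and 469 CPM against 124 to 257 CPM (0.71 to 1.22). Each of these was higher in members in every mouse.

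Further genes of this kind were Cfp (properdin of the complement system, 0.56 to 0.94), Fcrls (an Fc receptor-like gene of macrophages, 0.54 to 1.02), Mrc1 (the mannose receptor CD206, 0.51 to 0.72), the transcription factor gene Maf (0.50 to 0.80), Adgre1 (0.49 to 0.62) and Siglece (a sialic acid-binding receptor, 0.48 to 1.13). Pf4 (platelet factor 4), Tmem176a, C1qb, Selenop (selenoprotein P), Itm2b, Mgl2 (CD301b), Tmem176b, Cd72, Rnase4, Gas7 and Tgfbr2 (a TGF-β receptor) had log2 ratios between 0.34 and 0.96 over the mice. Several are known markers of resident tissue macrophages.

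The lowest genes in members were those of blood monocytes. Plac8 had 366, 290, 346 and 321 CPM in members and 1433, 1166, 1199 and 1080 CPM in the others, with log2 ratios of −1.99 to −1.73. Ly6c2 had 52.1, 36.9, 77.7 and 57.7 CPM against 134 to 239 CPM (−1.97 to −1.55). Ifitm6 (−2.72 to −2.04), Hp (haptoglobin, −2.70 to −1.88), Chil3 (−2.38 to −1.57), Fn1 (fibronectin, −3.15 to −1.38), S100a4 (−2.36 to −1.24), Clec4e (the lectin Mincle, −2.30 to −1.20), Mcemp1 (−1.69 to −1.15) and Gm7676 (−1.63 to −1.34) completed the 10 lowest named genes. No mouse had any of these 10 genes at a higher level in members.

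**Figure D3:**
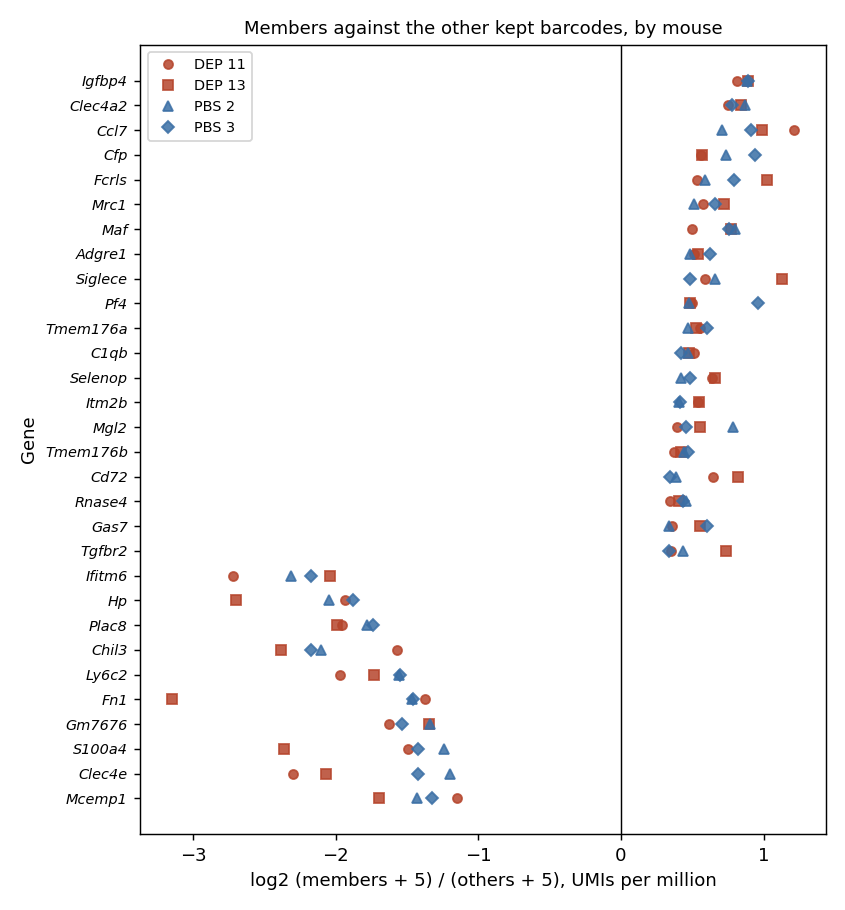
Log2 ratio of the level in members to that in the other kept barcodes (x axis, 5 CPM added to both) for the 20 highest and 10 lowest genes outside the score, 1 point per mouse. The higher genes lie between 0.34 and 1.22, and the lower genes between −3.15 and −1.15.

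Gene lists showed the same order. Of genes over 10 CPM outside the score, 632 of 6358 were higher and 853 lower in members in all 4 mice, with a median log2 ratio of −0.02. In the list of complement and resident macrophage genes 13 of 20 were higher and 0 lower (median 0.23), in the C-type lectins 7 and 2 of 13 (0.19), in MHC class II presentation 7 and 1 of 13 (0.14) and among perivascular and scavenger receptor genes 5 and 0 of 11 (0.52). Interferon type I response genes had 0 higher and 10 lower of 28 (−0.26), inflammasome and interleukin 1 genes 1 and 5 of 14 (−0.25), and inflammatory cytokine and NF-kB feedback genes 1 and 7 of 21 (−0.16). Interferon gamma response genes had 1 higher and 2 lower of 20 (−0.16), immediate early genes 0 and 7 of 20 (−0.22), aryl hydrocarbon receptor and oxidative stress genes 0 and 4 of 9 (−0.29) and heat shock chaperones 0 and 3 of 14 (−0.08). Costimulation and dendritic cell maturation genes had 1 and 3 of 10 (−0.12), lipid transport genes 1 and 4 of 19 (−0.05), serpins and protease inhibitors 0 and 1 of 7 (−0.05), alternative activation genes 2 and 2 of 10 (0.17) and cell cycle genes 1 and 1 of 10 (0.09). The 2 Apol genes over 10 CPM, Apol7c and Apol7a, were both higher (0.33).

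A further 3 sets of 454 barcodes, chosen by the same kind of score, were set beside the members. The set ranked by Folr2 and Cbr2, markers of perivascular macrophages, shared 72 barcodes with them (15.9% of each), the set ranked by Vcam1, Cd72 and Lilra5 shared 54 (11.9%) and the set ranked by Cd209a and Clec10a, lectins of dendritic cells and macrophages, shared 48 (10.6%). By construction 10% of all kept barcodes were members. C1qa had 5576 ± 646 CPM in members (mean ± SD over 4 mice), 5362 ± 818 in the Folr2 set, 6803 ± 777 in the Vcam1 set and 2645 ± 410 in the Cd209a set. Ccr2 had 431 ± 48.7, 320 ± 117, 130 ± 20.9 and 740 ± 116 CPM in the same order, and Plac8 331 ± 32.9, 666 ± 103, 246 ± 67.8 and 1537 ± 261. Members therefore carried C1qa near the level of the Folr2 set with Plac8 below it in all mice, and their Ccr2 level lay between those of the Vcam1 and Cd209a sets. Of the genes named above as higher in members than in the others, several had a higher mean still in the Folr2 set, among them Pf4 (2098 ± 533 CPM there and 1099 ± 239 in members), Fcrls (316 ± 72.9 and 207 ± 45.8), Mrc1 (313 ± 54.9 and 241 ± 44.9), Selenop (2595 ± 488 and 2277 ± 380), Maf (171 ± 27.8 and 142 ± 28.8), Ccl7 (485 ± 94.7 and 421 ± 88.4) and Igfbp4 (87.3 ± 29.5 and 70.7 ± 18.2). In the Vcam1 set C1qb (7237 ± 433 CPM there and 6624 ± 238 in members) and Cd72, which chose that set (877 ± 47.0 and 489 ± 74.8), were higher. Ly6c2 was as low there, at 47.8 ± 17.1 CPM against 56.1 ± 16.9 in members. Mgl2 had 451 ± 93.6 CPM in the Cd209a set and 246 ± 17.5 in members. Clec4a2 had its highest mean in members, with 680 ± 57.1 CPM against 456 ± 33.2, 390 ± 40.3 and 463 ± 40.2. Adgre1 and Cfp also had their highest means in members. Apol7c had 248 ± 71.8 CPM in members and 260 ± 125 in the Folr2 set, so its level did not single out the members.

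The first comparison between exposures asked whether DEP altered the abundance of these cells. Of the kept barcodes of DEP 11, 9.17% were members (107 of 1167, 95% exact binomial interval 7.57 to 11%), as were 8.66% of those of DEP 13 (55 of 635, 6.59 to 11.1%), 13.5% of those of PBS 2 (167 of 1236, 11.7 to 15.5%) and 8.31% of those of PBS 3 (125 of 1505, 6.96 to 9.82%). The intervals cover counting error only. PBS 2 was high and the other 3 mice were level. The mean was 8.92% ± 0.359 (SD, n = 2) in DEP and 10.9% ± 3.68 in PBS mice, a difference of −1.99 percentage points that was smaller than the spread between PBS mice (exact two-sided permutation p = 1, smallest p possible 0.333). Without PBS 2 the difference was 0.609 points. The sort can set such shares. Median UMIs of the other barcodes were 7099 in PBS 2 and 5258 to 5783.5 in the remaining mice. Total UMIs were 10293703 in PBS 2 and 9893180 in PBS 3, the mouse with the lowest share. With the score taken after thinning every barcode to 1000 UMIs, the difference was −0.744 points. The parts of the sort and of depth in these shares were not tested.

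**Figure D4:**
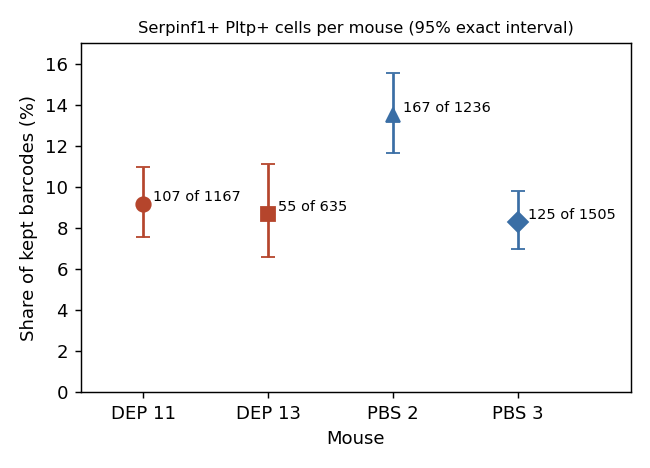
Members as a percentage of kept barcodes in each mouse, with 95% exact binomial intervals that cover counting error only, and the counts beside each point. PBS 2 stands at 13.5%, and DEP 11, DEP 13 and PBS 3 lie between 8.31% and 9.17%.

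The second comparison asked which genes differed with DEP within the members. UMIs of all members were summed per mouse, to 351905 to 1543434 UMIs, and the quasi-likelihood test of edgeR was run on 7154 genes. A sum over cells cannot tell fewer expressing cells from less RNA per cell. H2-M2 alone passed a false discovery rate (FDR) of 5%, which is 0.014% of the genes tested, and 257 genes had an unadjusted p under 0.05, 153 of them higher in DEP. Both DEP mice lay above both PBS mice for 16.5% of the genes tested and below them for 14.9%.

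H2-M2 (ENSMUSG00000016283, chromosome 17, 37480851 to 37483552) encodes an MHC class Ib molecule, a relative of the classical antigen-presenting class I molecules. It had 303 and 296 CPM in members of DEP 11 and DEP 13 and 85.5 and 80.3 CPM in those of PBS 2 and PBS 3, from 233, 104, 132 and 71 UMIs. The groups did not overlap, and the log2 fold change was 1.85 (SE 0.23, edgeR adjusted p = 0.000932). In the other barcodes H2-M2 had 311, 220, 121 and 197 CPM, so there too both DEP mice lay above both PBS mice, at a smaller distance.

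The share of members with an H2-M2 UMI differed less than the level. An H2-M2 UMI was found in 31 of 107 members of DEP 11, 11 of 55 of DEP 13, 30 of 167 of PBS 2 and 31 of 125 of PBS 3, and these shares overlap between the groups. After thinning they were 11.2%, 14.5%, 7.78% and 8.0%, where the groups no longer overlap, from few cells. The UMIs per member with the gene were 7.52, 9.45, 4.40 and 2.29. The 5 members with the most H2-M2 UMIs carried 51.9%, 73.1%, 62.1% and 40.8% of them. Much of the level thus came from few cells in the mice of both groups. Over all mice the gene was found in 22.7% of members, 24.5% of the others and 38.8% of plasma cell barcodes (9.47%, 9.71% and 1.25% after thinning). Without the members that also belonged to the Vcam1 set, in which H2-M2 was high at 420 to 660 CPM, its levels were 275, 182, 64.3 and 72.6 CPM. H2-M2 was called in 19 of 20 other settings, with log2 fold changes of 1.32 to 2.70 over all 20. The exception was the score without Asb2, with 1.33 and an edgeR adjusted p of 0.973.

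The next higher genes failed the correction in this fit, and Ccl8 passed it in 10 and Apol7a in 7 of 20 other settings. Ccl8, a chemokine of resident macrophages, had 568, 773, 262 and 321 CPM in members (log2 fold change 1.20, SE 0.23, edgeR adjusted p = 0.140), and 488, 628, 379 and 299 CPM in the others. Both DEP mice were above both PBS mice in both kinds of cells. Apol7a (chromosome 15, 77388219 to 77399110) had 52.1, 71.0, 20.7 and 13.6 CPM in members (log2 fold change 1.74, SE 0.35, edgeR adjusted p = 0.188) and 33.9, 55.8, 16.2 and 11.1 CPM in the others. Its counts were small, at 40, 25, 32 and 12 UMIs, and in DEP 13 a single member held 56.0% of them.

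Apol7c had a log2 fold change of 0.62 in members (SE 0.23, edgeR adjusted p = 0.999). Its groups did not overlap, but PBS 2 at 235 CPM lay close to DEP 13 at 273 CPM, and a single member held 52.1% of the Apol7c UMIs of DEP 13. Of 13 genes of the Apol family, the remaining 11 were under the gene filter, with at most 8 UMIs in the members of a mouse (Apol10b in PBS 2). No gene of the family passed the correction in this fit.

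Genes lower in DEP with the smallest p also failed the correction in this fit, and of 20 other settings Dnajb1 passed it in 3, Marcksl1 in 2 and Clec4e in 0. Tnfrsf23 passed it in 1 of the 18 settings and Gpx3 in 0 of the 17 settings that tested them. Dnajb1, an HSP40 co-chaperone, had 155, 256, 364 and 482 CPM in members (log2 fold change −1.08, SE 0.26, edgeR adjusted p = 0.826). Marcksl1, a regulator of the actin skeleton, had 104, 128, 328 and 152 CPM (−1.07), with PBS 2 far above PBS 3. Its log2 fold change was −0.46 without PBS 2 and −1.48 without PBS 3. Clec4e had 9.12, 11.4, 38.9 and 21.5 CPM (−1.65) from 4 to 60 UMIs. Tnfrsf23, a decoy receptor for TRAIL, had 2, 0, 19 and 18 UMIs, and Gpx3, a glutathione peroxidase, 2, 0, 25 and 8 UMIs, too few in DEP mice to give a size. The last 4 had an edgeR adjusted p of 0.999.

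**Figure D5:**
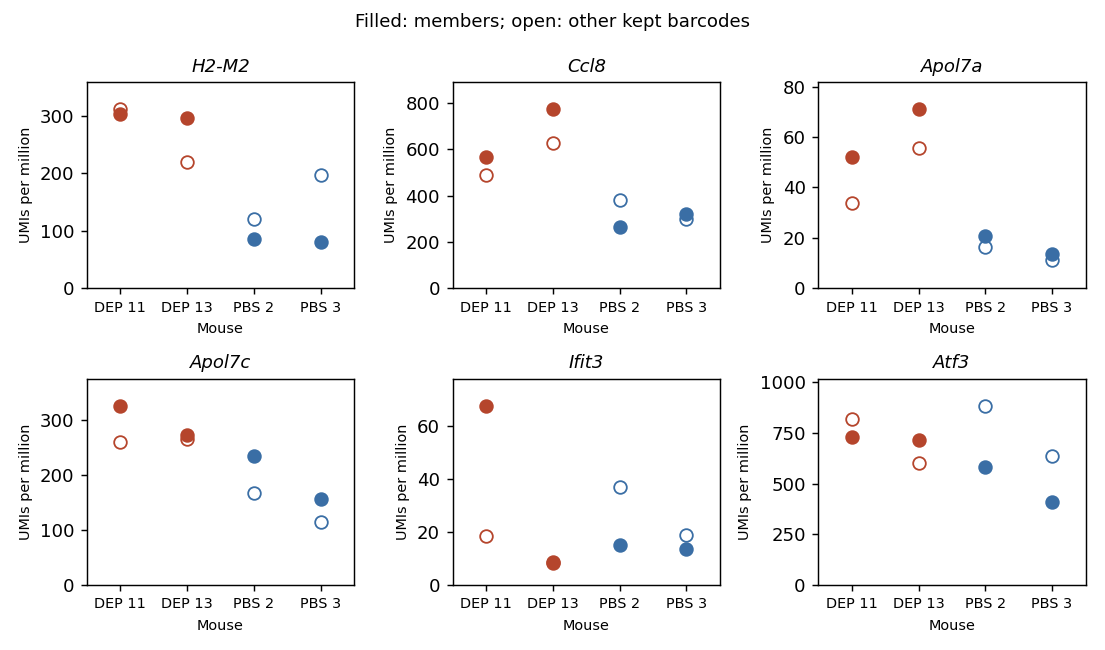
CPM of H2-M2, Ccl8, Apol7a, Apol7c, Ifit3 and Atf3 in each mouse, in members (filled) and the other kept barcodes (open), 1 point per mouse and kind of cell. Members of DEP mice lie above those of PBS mice for all but Ifit3, and the high Ifit3 point of 67.7 is DEP 11.

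Gene lists described how functions moved with DEP within members, and 0 genes of any list were called (edgeR's quasi-likelihood test, with 0 to 5 genes of each list at an unadjusted p under 0.05). Of all the genes 3529 were higher and 3625 lower in DEP, with a median log2 fold change of −0.0047. Heat shock chaperones stood apart from this, with 0 of 14 higher and 14 lower and a median of −0.63, and 5 of 14 had an unadjusted p under 0.05. Hspa1a, an inducible HSP70, had 1270, 1239, 2198 and 1633 CPM in members (log2 fold change −0.61), and reads can be exchanged with its near-identical copy Hspa1b. Both DEP mice lay below both PBS mice for 7 of the 14, against 14.9% of all genes tested. The other barcodes showed the same, with 14 of 14 lower (median difference of log2 CPM −0.67 there and −0.56 in members). Without PBS 3 the median in members was −0.20, and without PBS 2 it was −0.996. Summed over the list the members had 7303 and 7596 CPM in DEP 11 and DEP 13 and 8558 and 11150 CPM in PBS 2 and PBS 3, and the other barcodes had 7218, 8110, 9733 and 13263 CPM in the same order. The lower level in DEP mice thus stood in both kinds of cells, and PBS 3 was the highest in both.

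Complement and resident macrophage genes were 15 higher and 5 lower of 20 in DEP (median 0.13), of which 2 had an unadjusted p under 0.05. Leaving out 1 mouse moved this median between 0.046 and 0.235. Both DEP mice were above both PBS mice for 4 of the 20. Over all genes tested they were above for 16.5% and below for 14.9%. C1qb (log2 fold change 0.04), C1qa (0.11) and C1qc (0.19) differed little. Interferon gamma response genes were 15 higher and 6 lower of 21 (median 0.18), and Gbp2b, a guanylate-binding protein, had 109, 68.2, 47.3 and 32.8 CPM (1.17, edgeR adjusted p = 0.901). Interferon type I response genes were 14 higher and 11 lower of 25 in the fit (0.06), but 11 higher and 14 lower by log2 CPM (−0.07), and both DEP mice lay below both PBS mice for 8 and above them for 4. In the other barcodes 5 of these 25 were higher and 20 lower by log2 CPM. In members Ifi27l2a had 745, 673, 1093 and 985 CPM (−0.55, edgeR adjusted p = 0.999). MHC class II presentation genes were 8 higher and 5 lower of 13 (0.06), with Cd74 at 0.16, H2-Ab1 at −0.00 and H2-Aa at 0.06.

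Inflammatory and stress lists had as many or more genes lower than higher in DEP, with small medians. Leaving out 1 mouse could turn the sign of each median. The range was −0.31 to 0.08 for inflammasome, −0.27 to 0.12 for inflammatory cytokine, −0.29 to 0.11 for immediate early and −0.34 to 0.02 for aryl hydrocarbon receptor genes. Over all genes tested, both DEP mice lay below both PBS mice for 14.9% and above them for 16.5%. Inflammasome and interleukin 1 genes were 7 higher and 7 lower of 14 (median −0.04), and the interleukin gene Il1b had 2624, 2259, 2643 and 1597 CPM (log2 fold change 0.21). Inflammatory cytokine and NF-kB feedback genes were 8 higher and 13 lower of 21 (−0.12), and both DEP mice lay below both PBS mice for 5 and above them for 1, with Ccl4 at 0.14 and Ccl3 at 0.00. Immediate early genes were 8 higher and 12 lower of 20 (−0.13), and both DEP mice lay below both PBS mice for 7 and above them for 3, with Fos at 0.12 and Junb at 0.01. In the other barcodes 2 of these 20 were higher and 18 lower by log2 CPM. Aryl hydrocarbon receptor and oxidative stress genes, among them targets of compounds found in combustion particles, were 3 higher and 6 lower of 9 (−0.18), with Nfe2l2 at 0.36 and Hmox1 (heme oxygenase 1) at −0.50.

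Lipid transport and storage genes were 9 higher and 11 lower of 20 (median −0.01), with Apoe at 0.10 and Npc2 at −0.01. Serpins and protease inhibitors were 2 higher and 6 lower of 8 (−0.09), C-type lectins 7 and 8 of 15 (−0.02), costimulation and dendritic cell maturation genes 6 and 4 of 10 (0.01) and perivascular and scavenger receptor genes 2 and 8 of 10 (−0.20). By log2 CPM the costimulation list had 8 higher and 2 lower in members and 5 and 5 in the others, and the perivascular list 3 higher and 7 lower in members (median −0.17) and 7 and 3 in the others (0.10). In the perivascular list Selenop had 2451, 2725, 1896 and 2036 CPM (log2 fold change 0.40, unadjusted p = 0.0392) and Pf4 −0.25. Alternative activation genes were 3 higher and 6 lower of 9 (−0.02) and cell cycle genes 3 and 6 of 9 (−0.17). By log2 CPM the cell cycle list had 2 higher and 7 lower in members (−0.26) and 5 and 4 in the others (0.07). Leaving out 1 mouse moved its median in members between −1.02 and 0.08. The Apol list was 2 of 2 higher (median 1.18).

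The third comparison asked whether the DEP effect in members differed from that in the other kept barcodes, in a fit of 8 sums with the mouse as a block. The edgeR quasi-likelihood test called 3 of 6604 genes (0.0454%), all with the larger log2 fold change in members, and 314 had an unadjusted p under 0.05. For H2-M2 the difference of log2 fold changes was 0.98 (SE 0.19, edgeR adjusted p = 0.0231). Atf3 (chromosome 1, 191170296 to 191218039), a stress-induced transcription factor gene, had 729, 716, 579 and 409 CPM in members and 820, 604, 885 and 638 in the others (0.62, SE 0.11, edgeR adjusted p = 0.0156). Atf3 was thus lower in members than in the others in PBS mice and in DEP 11 and higher in DEP 13. Ifit3 (chromosome 19, 34583531 to 34588731), an interferon-induced antiviral gene, had 67.7, 8.53, 14.9 and 13.6 CPM in members and 18.3, 8.32, 36.8 and 18.8 in the others (2.65, SE 0.41, edgeR adjusted p = 0.00193). Its members' value came from DEP 11, where 52 UMIs lay in 7 members and 1 member held 57.7% of them, and the other DEP mouse had 3 UMIs. Without DEP 11 the Ifit3 difference was 1.09 (edgeR adjusted p = 0.892).

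None of these 3 calls held in every setting, and DESeq2 called 0 genes. The count by edgeR was also 0 without PBS 2 or without PBS 3, and it was 44 without DEP 11 and 10 without DEP 13. The genes with the smallest p in the other direction were Tmsb10 (thymosin beta 10, −0.45, edgeR adjusted p = 0.111), Gm9733 (−1.25, 0.376), Ly6i (−2.20, 0.519), Lyz2 (−0.24, 0.735) and Crip1 (−0.32, 0.837). Of 19 other settings Tmsb10 passed the correction in 11, Gm9733, Lyz2 and Crip1 in 2 each and Ly6i in 1, against 14 for Ifit3, 12 for H2-M2 and 11 for Atf3. Tmsb10 had 1137, 838, 1348 and 1456 CPM in members and 2342 to 2531 CPM in the others.

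Called doublets were 12 of the 454 members and 56 of the 4089 others. Their share in members and others was 2.80% and 1.04% in DEP 11, 12.7% and 4.48% in DEP 13, 0% and 0.561% in PBS 2, and 1.6% and 0.942% in PBS 3, so it was higher in members of 3 mice. Without called doublets H2-M2 had a log2 fold change of 1.91 in members, and edgeR called 5 genes there. Barcodes with UMIs of at least 2 lymphocyte genes were 21 of the members (4.63%) and 175 of the others (4.28%).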

How the data were processed

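The deposited table holds UMI counts, whole numbers per gene and barcode that the authors made from 10x Genomics 3′ v2 libraries and left unnormalized. The submitters' processing notes name Cell Ranger, STAR 2.6.1a, R 3.5.1 and mm10. Which filter, if any, preceded deposit is not given in the sources used. The study describes fewer filtered cells than these limits left. Barcodes were assigned to mice by suffix, with 0 columns unassigned. Symbols and positions came from GENCODE M21. Members and gene lists were chosen with earlier results of these data known.

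UMIs were summed per mouse over members and over the other kept barcodes. Genes over 1 CPM in 2 sums or more, and found in 5% or more of cells, were tested with edgeR 4.0.16 (quasi-likelihood F test, TMM, R 4.3.3, Benjamini-Hochberg adjustment, FDR of 5%), and the interaction over 8 sums with the mouse as a block. Shares were compared by an exact permutation test over 6 assignments. Each mouse's barcodes were scored for doublets by scrublet in scanpy 1.11.5, at an expected rate of 6%, and called doublets stayed in.

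Named genes were the score and Apol genes, the 20 highest genes in members (at least 50 CPM on average there) and the 10 lowest (at least 50 CPM on average in the others) by the log2 ratio nearest 0 among the mice, per fit and direction the called genes or the 5 of smallest p that failed, and the most abundant genes of each list. Sums were also simulated from a pooled profile, the totals per mouse and the fitted trend of the spread, with no further difference between mice. For the members, 21 of 100 genes changed 2-fold and 72 of 100 changed 4-fold were called. So were 5 unchanged genes, with 7154 genes simulated in all. In simulated sums for the interaction, 40 and 88 of 100 were called, and so were 6 unchanged genes, with 6604 genes simulated in all. Alternatives were DESeq2 1.42.0, limma voom (limma 3.58.1), the likelihood ratio test, library size scaling, other gene filters, other member rules (top 5% or 20%, within mice, at least 2000 UMIs, mitochondrial share up to 5%, thinned scores, without lymphocyte barcodes or called doublets, equal numbers per mouse) and leaving out each mouse. The score without Asb2 was added after seeing the data. Ig genes and genes without a symbol were counted but not named.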

Additional observations from a re-analysis of the deposited data

Results flagged for a closer look

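Ifit3, H2-M2 and Atf3 drew attention because the test of the difference between members and the other kept barcodes passed for their DEP effect. The difference of log2 fold changes, members minus others, was 2.65 for Ifit3, 0.98 for H2-M2 and 0.62 for Atf3 (edgeR interaction, adjusted p of 0.00193, 0.0231 and 0.0156). For Ifit3 the value moved with DEP 11, in whose members 5 barcodes held 96.2% of its UMIs, and it was 1.09 without that mouse. For H2-M2 and Atf3 both DEP mice lay above both PBS mice in members, and in the other barcodes they did so for H2-M2 and overlapped for Atf3. H2-M2 was called in 12, Atf3 in 11 and Ifit3 in 14 of 19 other settings. What made these effects differ was not tested.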

How the results depend on the processing

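Depth limits most single-gene values, since the members of DEP 13 hold 351905 UMIs and a gene at 10 CPM has few UMIs there. The difference in the share of members kept its sign in 11 of 12 settings (−4.60 without PBS 3 to 0.609 without PBS 2). It has no value with the top 10% taken within each mouse or with equal numbers. No paired analysis was possible because each mouse received a single exposure and the labels give no pairing of mice.

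The number of genes called between DEP and PBS in members was 0 with the score without Asb2, 1 in 5 settings, 2 with the top 5% or 20%, without lymphocyte barcodes, with DESeq2 or with library size alone, 3 with the top 10% within each mouse or the likelihood ratio test, 4 with thinned scores, 5 without called doublets and 13 with no gene filter, and 5 to 25 when a mouse was left out (25 without PBS 2), where a lone mouse is assumed to vary like the others. The number for the difference of effects was 0 with DESeq2, 1 with the top 5%, 5 without lymphocyte barcodes, 9 with filterByExpr, 10 with the score without Asb2, 11 with the top 20%, 12 with no gene filter, 13 without called doublets, 23 with thinned scores and 24 with the top 10% within each mouse, and 0 to 44 when a mouse was left out. The cause of these changes was not tested.

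Of the values of single named genes, 264 were on the same side of the threshold with the same sign, 41 gained a call, 20 lost it and 2 changed sign, Ifit3 with the top 5% (−0.71) and Ly6i with the score without Asb2 (0.54). Of 340 list medians, 44 moved by more than the spread between mice, and 5 of 17 lists kept their sign in every setting (Apol, MHC class II, complement and resident macrophage, interferon gamma and heat shock).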
